A study of Mus musculus with 4 samples.

Results

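Slc18a2 and Aard are 2 of the 32285 genes counted in single cells from mouse ovaries. Both were selected on their level in granulosa cells, which was lower in the mice given anti-Müllerian hormone (AMH) in both comparisons with and without that hormone, so the size and direction of that difference are described here without a test. Each symbol matched 1 gene of the count tables: Slc18a2 is ENSMUSG00000025094, with 50578 unique molecular identifiers (UMIs, 1 per captured RNA molecule) in 8237 of the deposited cells, and Aard is ENSMUSG00000068522, with 10117 UMIs in 3565 cells.

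The study asked whether AMH protects the ovary from the chemotherapy drug doxorubicin, an anthracycline that damages DNA. Prepubertal mice entered it at postnatal day 25. The control library came from mice given PBS or saline, the doxorubicin library from mice given 2 weekly doses of 3 mg/kg, the doxorubicin and AMH library from mice that also received 0.75 mg/kg recombinant human AMH, and the AMH library from mice given that hormone dose alone. Ovaries were taken 4 hours after the second doxorubicin dose, and 1 ovary from each of 5 mice was pooled into a single library per group, so no difference below has a replicate check, and the intervals given cover counting error only.

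After filtering, the libraries held between 6078 and 7998 cells, which were clustered jointly without the 2 genes described here. The 9112 granulosa-like cells numbered 2076 in the control library, 1833 with doxorubicin, 2230 with doxorubicin and AMH, and 2973 with AMH. All 9 granulosa markers used for naming exceeded 20 CPM in these cells, where CPM is the share of a gene in the summed UMIs times 1000000. Their median depth was 22808, 24301, 21606 and 16163 UMIs per cell in the same order. Pairs of libraries shared between 11 and 24 cell barcodes, at most 0.281% of the smaller library. Cells of clusters left without a class name made up 7.24% of the doxorubicin library and at most 1.88% of the others. Each of these clusters met the marker rule of a class but stayed unnamed, for mixed markers or for low depth without a leading marker.

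Slc18a2 encodes the vesicular monoamine transporter VMAT2, a proton antiporter that loads dopamine, noradrenaline, adrenaline, serotonin and histamine from the cytosol into secretory vesicles. It is best known from monoamine neurons, platelets and mast cells. Aard encodes a small protein with an alanine- and arginine-rich domain, and its transcript is known from the supporting cells of the developing testis, the Sertoli cells, which share their origin with granulosa cells. AMH is a hormone of the TGF-β family that granulosa cells of growing follicles make, and it signals through its own type 2 receptor, Amhr2, to SMAD proteins.

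Slc18a2 lies on chromosome 19 of the mouse build GRCm38 (chr19:59260896-59296012, plus strand, GENCODE vM21), and its first listed transcript has 16 exons. An antisense gene, Gm29261, overlaps its first bases and had between 1 and 19 UMIs per library in granulosa-like cells, against 4630 to 17206 for Slc18a2. The stretch below runs from 100 bases before to 30 bases after the RefSeq start site (chr19:59260778-59260907, plus strand, GRCm38.p6) and is shown because it holds the rarest of the motifs matched in the longer window searched. The capitals mark TGACGTCA, the full cAMP response element.

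Slc18a2 promoter: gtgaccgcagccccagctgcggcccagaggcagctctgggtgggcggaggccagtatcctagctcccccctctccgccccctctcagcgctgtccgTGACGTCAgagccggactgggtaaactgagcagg

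The element spanned the start site, from position -4 to 4 with no position 0, and was found in 1.79% of the 32851 RefSeq promoter windows of 300 bases searched on both strands. In the full 300-base window of Slc18a2, the SP1 motif GGGCGG matched 2 times, against at least 1 match in 35.7% of all windows. The SMAD box CAGAC matched 1 time, from position -132 and so before the stretch shown, and was found in 49.6% of windows. The palindromic SMAD motif GTCTAGAC, the BMP-type SMAD motif GGCGCC, the NR5A motif AAGGTCA and the FOX motif TGTTTAC had no match in it. They were found in 0.213%, 11.9%, 4.72% and 3.65% of all windows. A match describes letters only and shows no binding.

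Aard lies on chromosome 15 (chr15:52040107-52045722, plus strand, GRCm38, GENCODE vM21) in 2 exons, and its 167 codons include 25 for alanine and 25 for arginine. Together these made up 29.9% of its codons, against a median of 12.0% over the longest coding transcript of 21500 mouse genes, of which 0.121% reached the share of Aard. The 40 codons densest in both are shown because they give the gene its name. They lie in exon 1 (chr15:52040369-52040488), hold 16 alanine and 12 arginine codons, and have those codons in capitals.

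Aard coding bases 187 to 306: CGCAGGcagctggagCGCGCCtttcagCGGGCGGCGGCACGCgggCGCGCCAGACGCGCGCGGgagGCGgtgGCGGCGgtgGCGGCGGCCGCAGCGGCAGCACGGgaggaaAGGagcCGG

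Granulosa-like cells held most of both transcripts. Of all Slc18a2 UMIs in classified and unclassified cells together, 95.5% lay in granulosa-like cells of the control library, and 93.8%, 93.3% and 91.0% with doxorubicin, doxorubicin and AMH, and AMH. The same shares for Aard were 90.9%, 89.2%, 82.0% and 84.2%. Granulosa-like cells were 26.0% to 37.3% of the cells of a library.

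In granulosa-like cells Slc18a2 stood at 271 CPM in the control library (95% exact Poisson interval 267 to 275), 245 CPM with doxorubicin (241 to 249), 81.9 CPM with doxorubicin and AMH (79.7 to 84.2) and 62.3 CPM with AMH (60.5 to 64.1). Both libraries without AMH were high and both with AMH were low, the pattern the gene was chosen for. Slc18a2 was 4.36-fold lower with AMH than in the control (95% exact interval of the ratio of counts, 4.22 to 4.50) and 2.99-fold lower with doxorubicin and AMH than with doxorubicin (2.90 to 3.09).

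Aard stood at 43.4 CPM in the control library (41.8 to 45.0), 60.8 CPM with doxorubicin (58.8 to 62.8), 13.0 CPM with doxorubicin and AMH (12.2 to 14.0) and 13.9 CPM with AMH (13.0 to 14.7). The libraries with AMH were again the low ones, but here doxorubicin alone was the highest. Aard was 3.13-fold lower with AMH than in the control (2.91 to 3.37) and 4.66-fold lower with doxorubicin and AMH than with doxorubicin (4.32 to 5.04). In bulk sums over a class such as these, fewer expressing cells and less RNA per cell cannot be told apart.

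To place both genes among the others, ratios were taken as log2 of CPM plus 5 over the 6619 genes that averaged 20 CPM or more in granulosa-like cells. On this scale AMH against control was -2.04 for Slc18a2 and -1.36 for Aard, and 0.332% of all genes were 2-fold or more lower and 0.106% as much higher. For doxorubicin and AMH against doxorubicin the values were -1.52 and -1.87, with 0.468% of genes 2-fold or more lower and 0.106% higher. Both genes belong to these shares by the way they were chosen, so nothing is read from it. Ordered by the ratio closer to 0 of both pairs, the neighbours of Slc18a2 were Kctd14 at -1.81 and Pcsk6 at -1.48, and those of Aard were Amh at -1.43 and Gas6 at -1.35. In doxorubicin and AMH against doxorubicin alone, no gene tested was lower than Aard, and Kctd14 followed.

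**Figure D1:**
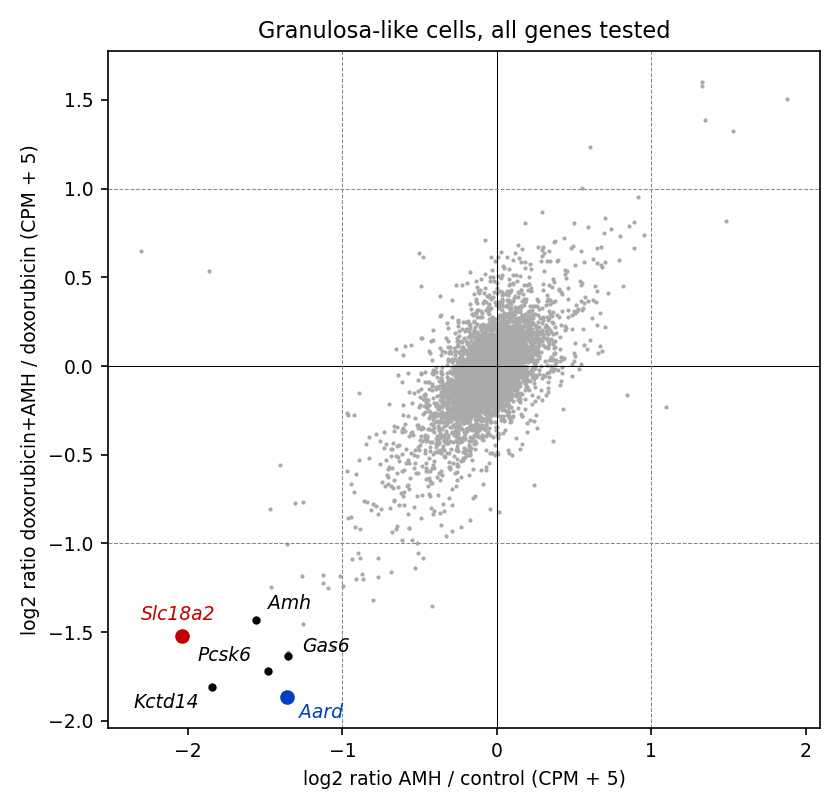
Each grey point is 1 of the 6619 genes tested in granulosa-like cells, with the log2 ratio of AMH to control on the x axis and of doxorubicin and AMH to doxorubicin on the y axis, both of CPM plus 5; dashed lines mark a 2-fold difference. Slc18a2 (red) sits at -2.04 and -1.52 and Aard (blue) at -1.36 and -1.87, beside Kctd14, Pcsk6, Amh and Gas6.

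The doxorubicin comparisons use the same 4 libraries as the AMH comparisons that chose the genes. Against control, doxorubicin alone left Slc18a2 slightly lower, at 0.904 times the control level (0.884 to 0.924), while Aard was 1.40 times as high (1.33 to 1.47). On the log2 scale these were -0.14 and 0.44, neither past 2-fold, a size that 0.0151% of genes reached in each direction. Of the 6619 genes, 15 stood higher than Aard in this contrast and 986 lower than Slc18a2.

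In the mice given AMH, Slc18a2 was 1.32 times as high with doxorubicin and AMH as with AMH alone (1.26 to 1.37), a log2 ratio of 0.37 with 104 genes higher. Aard was 0.941 times as high (0.857 to 1.03), a log2 ratio of -0.06, so no difference was detectable at this depth. In this contrast 0.0453% of genes were 2-fold or more higher and 0.0151% lower. By arithmetic, the doxorubicin ratios without and with AMH differ by as much as the AMH ratios without and with doxorubicin, so that difference is a description too.

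Markers of the other cells known for VMAT2 were low in the granulosa-like cells. The 8 mast cell genes summed to 4.85 CPM in the control library, 8.10 with doxorubicin, 4.32 with doxorubicin and AMH and 8.36 with AMH, and the 5 megakaryocyte or platelet genes to between 4.73 and 6.12 CPM, with none of either list above 20 CPM and none at 0 in all libraries. The 7 neuron or glia genes summed to 44.4, 44.1, 59.5 and 54.5 CPM in the same order, with 1 of the 7 above 20 CPM. None of these 3 sums was lower in both libraries with AMH, as Slc18a2 was. The 6 lymphatic endothelial genes were, at 45.7, 48.6, 15.8 and 28.0 CPM, of which Pdpn alone exceeded 20 CPM, and so were the 7 surface epithelial genes, at 73.5, 89.8, 58.6 and 67.5 CPM, with 1 of the 7 above 20 CPM. The 5 erythroid genes summed to 154, 136, 219 and 24.3 CPM and the 8 theca genes to 877, 783, 951 and 847 CPM; their part in the results was not tested.

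Cells were compared at an equal depth to separate the share of cells with a transcript from sequencing depth. After random thinning of each granulosa-like cell to 2000 UMIs, 27.2% had an Slc18a2 UMI in the control library (95% exact binomial interval 25.2% to 29.1%), 26.8% with doxorubicin, 12.0% with doxorubicin and AMH and 11.1% with AMH (9.98% to 12.3%). For Aard the shares were 6.27% (5.26% to 7.42%), 9.98% (8.63% to 11.5%), 1.66% (1.16% to 2.28%) and 2.16% (1.66% to 2.76%). Thinning left out 36, 29, 55 and 100 shallower cells. Without thinning the shares were 64.2%, 68.7%, 48.2% and 39.8% for Slc18a2 and 34.3%, 41.1%, 18.9% and 17.4% for Aard.

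The shares with AMH stayed above those of stroma-like cells for both genes, by less for Aard. Stroma-like cells, thinned alike, had an Slc18a2 UMI in 1.53% to 2.26% of cells and an Aard UMI in 0.637% to 1.06%. RNA free in the suspension can give such shares in cells that do not express a gene.

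Cells with many Slc18a2 UMIs were fewer in the AMH libraries. At 5000 UMIs per cell, which left out 171, 165, 334 and 680 shallower cells, 6.82% of granulosa-like cells held 5 or more Slc18a2 UMIs in the control library and 5.22% with doxorubicin, against 0.475% with doxorubicin and AMH and 0.480% with AMH. The mean was 1.15, 1.07, 0.387 and 0.324 Slc18a2 UMIs per thinned cell. For Aard, 0.367% and 0.719% of cells held 5 or more in the libraries without AMH and 0 of 1896 and 0 of 2293 cells did with it, which allows a share of up to 0.158% and 0.131%. The Aard means were 0.208, 0.330, 0.0649 and 0.0733.

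**Figure D2:**
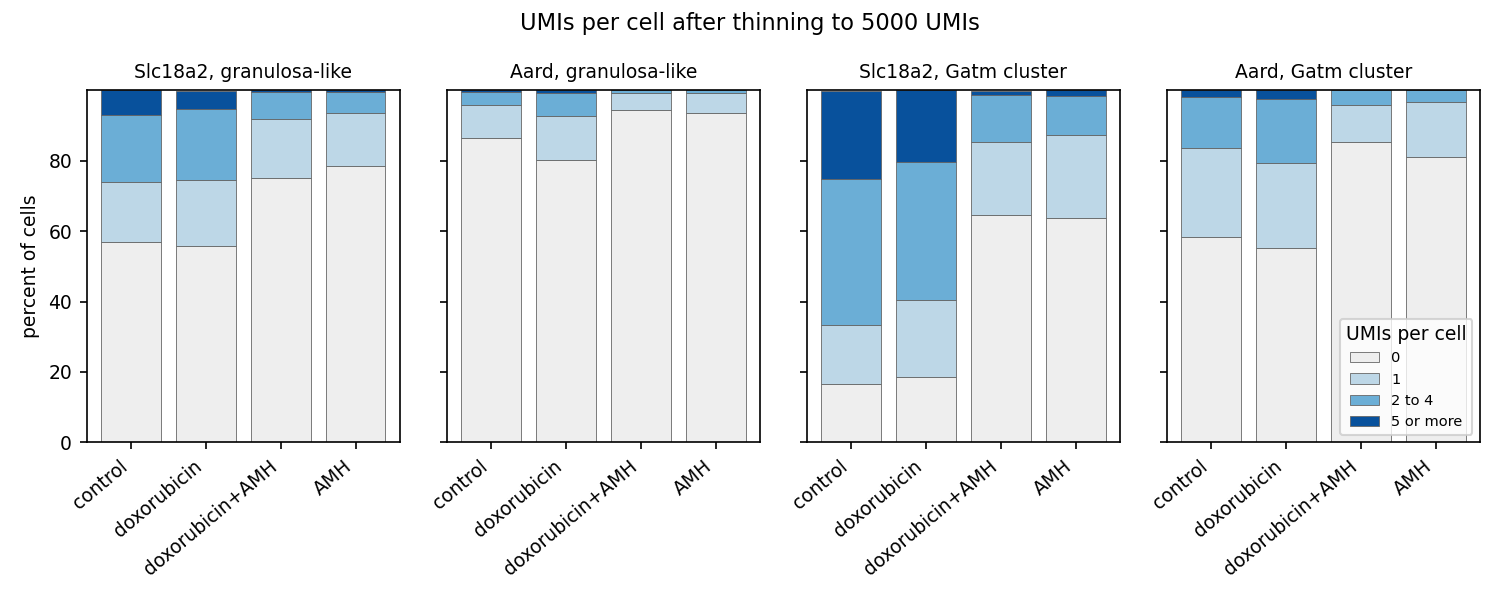
Bars give the percent of cells (y axis) with 0, 1, 2 to 4, or 5 or more UMIs of each gene per library after thinning to 5000 UMIs, in all granulosa-like cells (left panels) and in the Gatm cluster (right panels). In the Gatm cluster, cells with no Slc18a2 UMI were 16.6% and 18.7% in the libraries without AMH and 64.6% and 63.8% in those with it.

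The granulosa-like cells fell into 6 clusters present in every library, named here by the marker list that led them: Gatm, dividing cells, Slc38a5, Shroom3, Inhba and a cluster of low UMI count. In the control and doxorubicin libraries both genes were highest in the Gatm cluster, whose list holds Gatm, the enzyme of the first step of creatine synthesis, and Kctd14. In the control library this cluster held 46.8% of the granulosa-like Slc18a2 UMIs and 54.5% of the Aard UMIs in 16.2% of the cells. Kctd14 itself stood at 805, 851, 151 and 97.8 CPM there in the order control, doxorubicin, doxorubicin and AMH, AMH, so the cluster's size is not compared between libraries. Gatm was at 284, 264, 344 and 505 CPM.

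In the Gatm cluster Slc18a2 stood at 685 CPM in the control library (336 cells), 594 CPM with doxorubicin (266 cells), 148 CPM with doxorubicin and AMH (148 cells) and 103 CPM with AMH (223 cells). The AMH libraries stood far below the others and near the level of the Slc38a5 cluster, where the values were 252, 233, 126 and 113 CPM. Slc18a2 was 6.66-fold lower with AMH than in the control in the Gatm cluster (6.13 to 7.24) but 2.23-fold lower in the Slc38a5 cluster (2.09 to 2.38). On the log2 scale the Gatm value was -2.68, in a cluster where 2.2% of 6732 genes were 2-fold or more lower. With doxorubicin in both arms it was -1.97, and 1.63% of the genes were 2-fold or more lower.

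Aard in the Gatm cluster stood at 128, 163, 45.2 and 60.1 CPM in the same order, and in the Slc38a5 cluster at 28.5, 31.7, 9.78 and 9.47 CPM. In AMH against control the folds of the counts ran the other way round from those of Slc18a2. Aard was 2.12-fold lower with AMH than in the control in the Gatm cluster (1.89 to 2.39) and 3.01-fold lower in the Slc38a5 cluster (2.42 to 3.77). On the log2 scale these were -1.03 and -1.21. Over the processing alternatives they ran from -1.43 to -0.93 and from -1.50 to -1.02, ranges that overlap. Aard averaged 19.9 CPM in the Slc38a5 cluster, below the filter of 20 CPM. With doxorubicin in both arms Aard was 3.61-fold lower in the Gatm cluster (3.11 to 4.22) and 3.24-fold lower in the Slc38a5 cluster (2.62 to 4.03), with overlapping intervals. Slc18a2 was 4.01-fold (3.70 to 4.36) and 1.85-fold lower (1.73 to 1.97) there.

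The ratio of Slc18a2 to Aard UMIs restates the same counts library by library and adds no further support. In the Gatm cluster there were 5.36 Slc18a2 UMIs for each Aard UMI in the control library, 3.64 with doxorubicin, 3.28 with doxorubicin and AMH and 1.71 with AMH. In the Slc38a5 cluster the ratio was 8.83, 7.35, 12.9 and 11.9. In AMH against control it was lower in the first cluster and higher in the second. With doxorubicin in both arms the Gatm ratio differed little, and the intervals of both genes' folds overlap there.

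Dividing granulosa-like cells had Slc18a2 at 304, 298, 95.1 and 79.3 CPM and Aard at 38.5, 60.9, 11.0 and 12.1 CPM. Aard was 5.55-fold lower there with doxorubicin and AMH than with doxorubicin (4.83 to 6.39), and 1.58 times as high with doxorubicin as in the control (1.43 to 1.75). Slc18a2 was 0.981 times as high with doxorubicin as in the control (0.942 to 1.02), an interval that holds 1.

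The Inhba cluster, named for the activin subunit of larger follicles, and the Shroom3 cluster had the lowest Slc18a2 levels. Slc18a2 stood at 50.6, 49.5, 16.7 and 16.9 CPM in the Inhba cluster and at 57.5, 50.5, 28.9 and 31.1 CPM in the Shroom3 cluster. Aard stood at 13.9, 12.2, 9.80 and 8.22 CPM in the first and at 12.2, 19.4, 12.4 and 7.70 CPM in the second. For Slc18a2 the AMH libraries were the low ones in both clusters, by 2.99-fold (2.52 to 3.55) against control in the Inhba cluster and 1.85-fold (1.67 to 2.04) in the Shroom3 cluster. For Aard the difference was small there, 1.69-fold (1.28 to 2.24) and 1.58-fold (1.28 to 1.95), and with doxorubicin in both arms the interval held 1 in the Inhba cluster (1.25-fold lower, 0.930 to 1.68). These values moved with the processing. With each cell weighted equally, the log2 ratio of AMH to control for Aard in the Shroom3 cluster was -0.03 in place of -0.43, and with clusters replaced by gates per cell that of Slc18a2 was -1.41 in place of -0.79. Aard in the Inhba cluster, with doxorubicin in both arms, was at -0.22, and at -0.89 with cells from 500 UMIs. In that setting no Slc38a5 cluster was named, and the Inhba cluster held 2438 cells in place of 1643.

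The low-UMI cluster, with a median of 2851 to 3408 UMIs per cell, had Slc18a2 at 273, 332, 193 and 114 CPM, from 129 to 176 UMIs in a library. Aard there rested on 9, 13, 3 and 15 UMIs. It was 1.96-fold lower with AMH than in the control, with an interval that held 1 (0.756 to 4.78), and 6.76-fold lower with doxorubicin in both arms (1.86 to 37.0), a log2 ratio of -1.81 that was -0.22 with a mitochondrial limit of 10%.

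**Figure D3:**
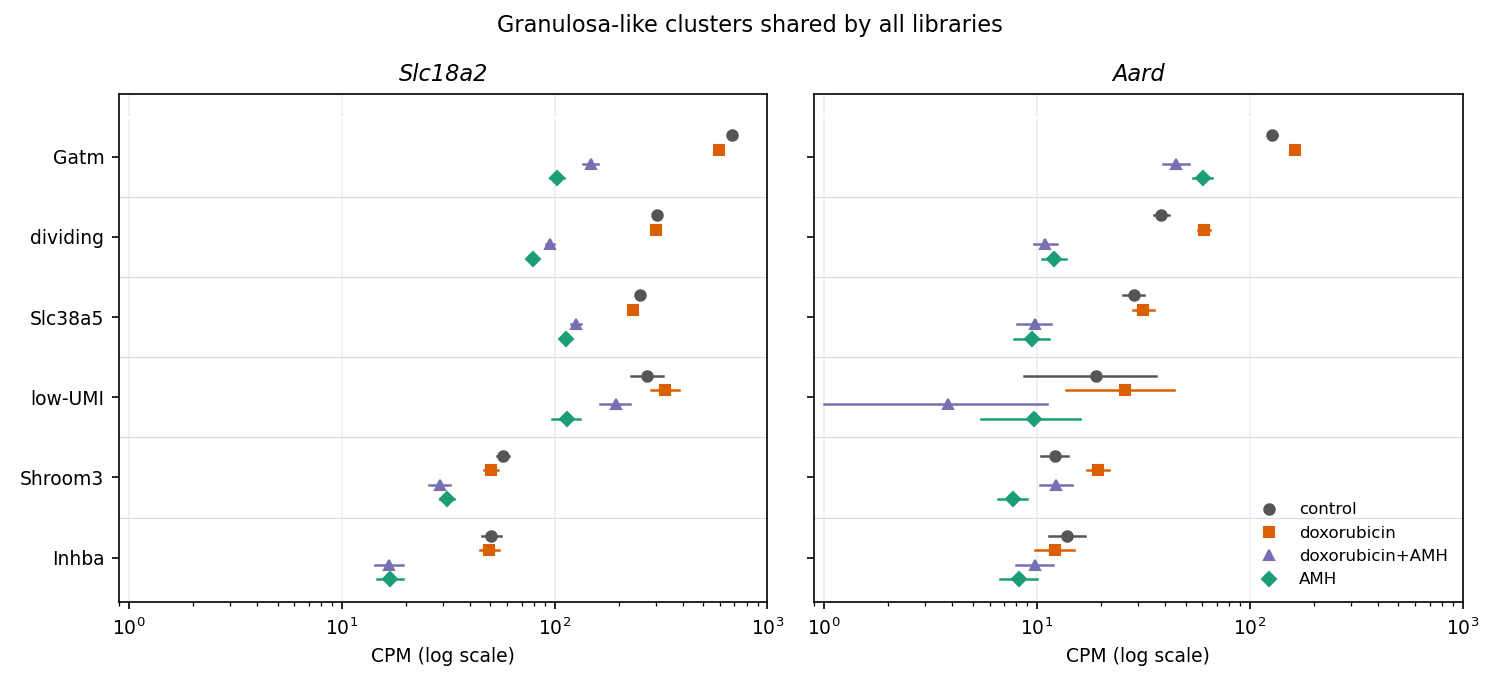
Levels of Slc18a2 (left) and Aard (right) in CPM on a log axis for the 6 granulosa-like clusters found in every library, 1 symbol per library with its 95% Poisson interval as a line. The Gatm cluster is highest for Aard in each library and for Slc18a2 in the libraries without AMH, and for Slc18a2 the AMH libraries sit to the left of the others in each cluster.

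A further 78 cells of the doxorubicin library formed a cluster with the Gatm marker list that was almost confined to it, with 1 other cell from the AMH library. Aard stood at 361 CPM there (321 to 405) and Slc18a2 at 294 CPM. These cells were 4.26% of the granulosa-like cells of that library and held 8.17% of their Aard UMIs. Without this cluster and an AMH-library cluster of 131 cells, Aard was at 56.6 CPM with doxorubicin, a log2 ratio to control of 0.35 in place of 0.44. With 1 library per group, a cluster from a single library may be that library and not a cell type.

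The levels were also taken at a fixed mix of clusters. Since the clusters rest in part on genes that differ with AMH, this does not separate their sizes from the levels within them. Weighted by the share of UMIs each of the 6 clusters had in the control library, Slc18a2 came to 271, 248, 84.4 and 69.7 CPM and Aard to 43.4, 58.0, 17.3 and 18.9 CPM. The order of the libraries was kept for Slc18a2, and the log2 ratio of AMH to control was -1.89. For Aard the ratios came nearer to 0, at -1.02 for AMH against control and -1.50 with doxorubicin in both arms.

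Over all granulosa-like cells of the control library, Slc18a2 was detected more often in cells with Aard than in cells without it. At 5000 UMIs per cell, 70.3% of the granulosa-like control cells with an Aard UMI also had an Slc18a2 UMI (64.3% to 75.8%), against 38.8% of those without (36.5% to 41.2%). Inside the Gatm cluster of the same library the shares were 82.6% (75.2% to 88.5%) and 83.9% (78.0% to 88.8%), so no difference was detectable there. In dividing cells they were 72.7% (57.2% to 85.0%) and 49.8% (44.1% to 55.5%). With AMH the shares over all granulosa-like cells were 25.7% (18.9% to 33.5%) and 21.2% (19.5% to 23.0%), whose intervals overlap. With doxorubicin and AMH they were 33.7% (24.7% to 43.6%) and 24.3% (22.4% to 26.4%), which overlap too. In dividing cells they were 58.3% (36.6% to 77.9%) and 28.1% (24.3% to 32.3%) with doxorubicin and AMH, without overlap. With AMH alone they were 26.9% and 26.4% in dividing cells.

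Outside the granulosa-like cells both genes were low in most classes. Stroma-like cells had Slc18a2 at 10.0, 10.1, 6.61 and 6.66 CPM and Aard at 3.85, 5.34, 3.17 and 3.22 CPM in the order control, doxorubicin, doxorubicin and AMH, AMH. Their Slc18a2 was 1.51-fold lower with AMH than in the control (1.25 to 1.83), and 1.53-fold lower with doxorubicin in both arms (1.27 to 1.85). In the control library it was 3.70% of the granulosa-like level. The same share was 2.83% for Inha, 3.06% for Fshr, 2.45% for Hsd17b1, 1.99% for Amh, 4.61% for Nap1l5 and 29.9% for Gatm. Whether these stroma-like UMIs were RNA free in the suspension was not tested. In the 6 other classes that had 50 or more cells per library, Slc18a2 was between 2.21% and 5.05% of the granulosa-like level in the control library and between 8.08% and 15.2% with AMH, where the granulosa-like level was lower.

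Theca-like cells had Slc18a2 at 5.98, 7.65, 4.63 and 5.03 CPM and Aard between 1.45 and 2.32 CPM. Different clusters made up that class: a cluster led by Cyp17a1, the androgen-making enzyme, held 668 and 426 cells of the libraries without AMH and 53 and 50 of those with it, while a cluster led by Grm7 and Lhcgr held 33, 24, 571 and 758 cells. Smooth muscle-like cells had Slc18a2 between 6.72 and 7.73 CPM, with log2 ratios of -0.02 and 0.03 in the AMH pairs that were -1.03 and -1.55 with doublets left in. In that setting the class also held a cluster of 774 cells that met the granulosa rule too, with Slc18a2 at 104 CPM. In blood endothelial-like cells Slc18a2 was between 5.78 and 13.7 CPM, and in macrophage-like cells between 5.04 and 16.8 CPM, and none of these 3 classes had Aard above 3.43 CPM.

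Surface epithelial-like cells had Aard at 7.86 CPM in the control library, 11.2 with doxorubicin, 12.8 with doxorubicin and AMH and 16.3 with AMH, from 26, 35, 9 and 26 UMIs in 106, 90, 41 and 64 cells. Aard there was 2.07 times as high with AMH as in the control (1.15 to 3.71), while with doxorubicin in both arms the interval held 1 (1.14 times, 0.480 to 2.41). The ratio of Slc18a2 to Aard UMIs there was 1.31, 0.714, 0.333 and 0.385, against 6.25, 4.03, 6.28 and 4.49 in the granulosa-like cells, so the 2 transcripts were not in the proportion seen in the granulosa-like cells of the same library. Pericyte-like cells had Aard at 10.8, 11.6, 9.59 and 9.01 CPM from 12, 10, 6 and 6 UMIs.

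**Figure D4:**
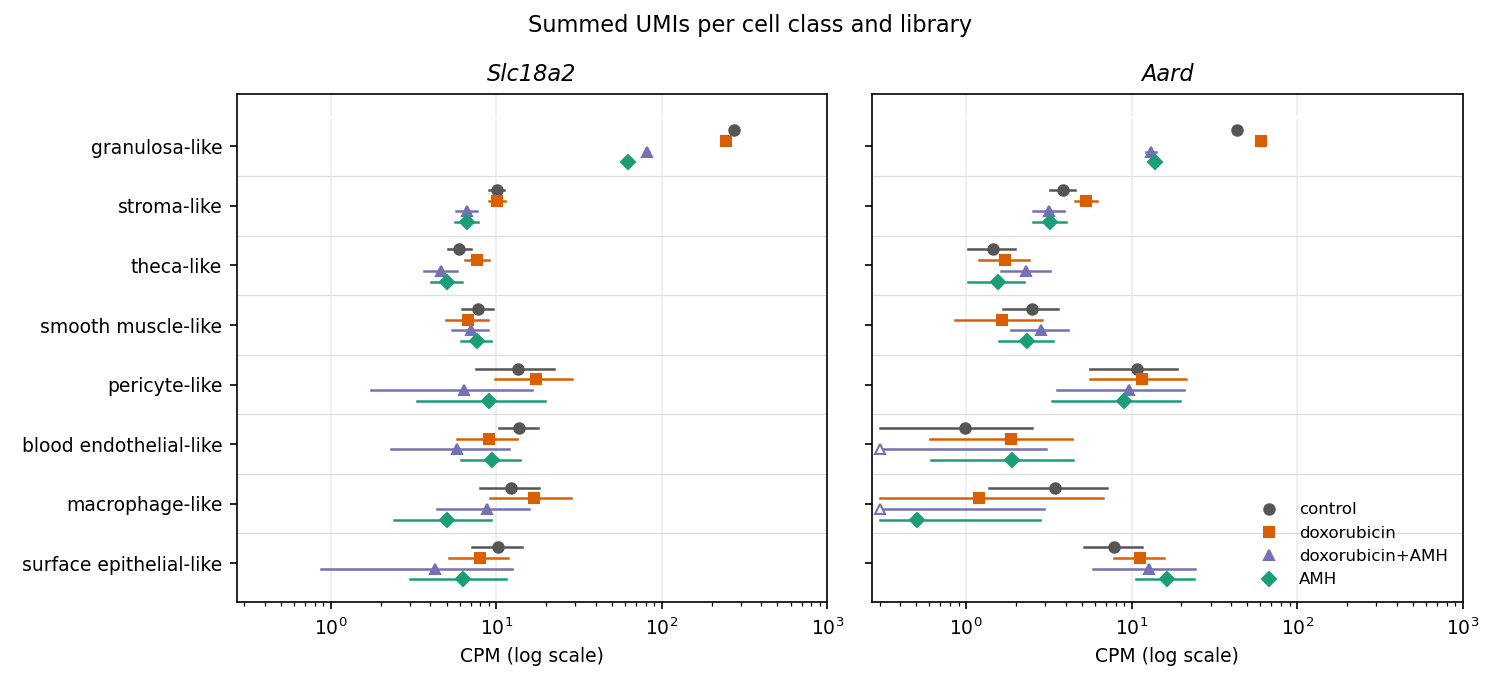
Levels of Slc18a2 (left) and Aard (right) in CPM on a log axis in 8 cell classes, 1 symbol per library with its 95% Poisson interval as a line; open symbols at the left edge stand for 0 UMIs. Granulosa-like cells are highest for both genes in each library except for Aard in the AMH library, where surface epithelial-like cells reached 16.3 CPM against 13.9 with overlapping intervals.

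Cells with at least 3 of the 8 mast cell markers were rare, 8 in all libraries together, and had Slc18a2 at 146, 144 and 194 CPM in the doxorubicin, doxorubicin and AMH, and AMH libraries, from 4, 2 and 44 UMIs. An unnamed cluster of low UMI count led by the oocyte gene Ooep had Slc18a2 at 53.1, 37.8, 32.5 and 28.5 CPM and Aard at 37.9, 37.8, 16.2 and 12.5 CPM. A cluster of 185 cells from the doxorubicin library alone, with smooth muscle and granulosa markers mixed, had Slc18a2 at 234 CPM and Aard at 95.3 CPM and entered no class.

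The rest of the monoamine pathway showed what surrounds VMAT2 in these cells. Of 68 pathway genes in the count tables, 10 averaged 20 CPM or more in granulosa-like cells, as did 6619 of all 32285 genes: 4 of 11 for synthesis, 1 of 4 vesicular transporters, 4 of 8 for breakdown and 1 of 9 for the secretory vesicle. None of 7 plasma membrane transporters and none of 29 receptors did. Th, the rate-limiting enzyme of catecholamine synthesis, was between 0 and 0.645 CPM, Ddc, which makes dopamine and serotonin from their precursors, between 2.31 and 3.10 CPM, and Hdc, which makes histamine, between 4.11 and 5.28 CPM. These 3 genes were chosen after their values were seen. The other synthesis genes that were measured, Gch1, Pts, Spr and Qdpr, make or recycle tetrahydrobiopterin, the cofactor of the first step.

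Slc18a2 was lower in the AMH pairs by the way it was chosen, so the other 9 pathway genes measured are described without it. In AMH against control 4 of the 9 were above 0 and 5 below, with a median log2 ratio of -0.14 against -0.06 over all genes tested, of which 34.0% were above 0. With Slc18a2 counted in, the median was -0.18, and -0.0091 without the filter on low values. With doxorubicin in both arms 5 were above and 4 below, with a median of 0.01 against -0.03 over all genes, of which 41.4% were above 0. Taking for each gene the AMH ratio nearer to 0, the lowest named was Aldh2, which oxidises monoamine aldehydes, at -0.19.

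Gch1, the first enzyme of tetrahydrobiopterin synthesis, was the highest by the same measure. It stood at 63.5, 69.1, 86.7 and 83.1 CPM in the order control, doxorubicin, doxorubicin and AMH, AMH, with log2 ratios of 0.36 and 0.31 in the AMH pairs. Akr1b3, an aldehyde reductase, and Spr, the last enzyme of the same synthesis, each followed at 0.14. In doxorubicin against control 6 of the 9 were above 0 with a median of 0.04, against 42.5% of all genes and -0.02. In doxorubicin and AMH against AMH 6 were above 0 with a median of 0.09, against 51.1% of all genes and a median of 0.00.

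Aard was on a list of 30 genes of the gonadal supporting cells, the lineage of Sertoli and granulosa cells, and 17 of the others averaged 20 CPM or more. Emx2, described below as a neighbour of Slc18a2, is among them. In AMH against control 9 of the 17 were above 0 and 8 below, with a median of 0.05, against 34.0% and -0.06 over all genes. With Aard counted in, the median was -0.03, and 0.03 with median-of-ratios scaling. That scaling moved the median over all genes from -0.06 to 0.0045. With doxorubicin in both arms 6 were above and 11 below, with a median of -0.09, against 41.4% and -0.03. Apart from Aard, Amh was past 2-fold lower in the first pair, and Amh and Wnt4, at -1.36, in the second, where 0.332% and 0.468% of all genes were.

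Amh, the gene of the hormone itself, stood at 139, 199, 70.6 and 44.0 CPM. Wt1, a transcription factor of early granulosa and Sertoli cells, stood at 138, 111, 63.4 and 73.7 CPM, with log2 ratios of -0.86 and -0.76 in the AMH pairs. The highest genes went the other way: Hsd17b1, which converts estrone to estradiol, stood at 313, 378, 679 and 512 CPM, Inhbb at 171, 216, 317 and 234 CPM and Inha at 2231, 2228, 3496 and 2824 CPM. Inhbb and Inha encode the subunits of inhibin B.

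In doxorubicin against control, 8 of the 17 were above 0, against 42.5% of all genes. Ihh at 0.61, Wnt4 at 0.52, Amh at 0.50 and Aard at 0.44 were the highest, a group named after its values were seen. Amh, Aard and Ihh were among the 10 leading genes of the cluster almost confined to the doxorubicin library, whose cells are in these sums. Without the clusters of 1 library Aard was at 0.35. In the mice given AMH the same contrast gave 0.48 for Ihh, -0.42 for Wnt4, 0.63 for Amh and -0.06 for Aard.

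The genes most like each of the pair were found by Pearson correlation of log2 levels over the 6 granulosa-like clusters in 4 libraries, 24 points that share libraries and, in part, the AMH difference, among 6724 genes. For Slc18a2 they were Map2k1 at 0.92, Adamts19, Cyp2s1, Gpm6b, Sdad1, Amh at 0.89, Ddx21 and Dsp. For Aard they were Gas6 at 0.90, Dgcr2, Gemin5, Stx18, Pop5, Gtf2a1, Pdpn and Dsp at 0.86. Dsp, which encodes the desmosome protein desmoplakin, was on both lists and stood at 75.2, 75.2, 28.8 and 24.1 CPM in granulosa-like cells. Slc18a2 and Aard themselves correlated at 0.70, with 124 genes more like Slc18a2 than Aard was.

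The like genes differed in size across the Gatm cluster. Adamts19, a secreted metalloprotease, stood at 481, 352, 185 and 157 CPM there, and Amh at 249, 360, 157 and 115 CPM. Gas6, a ligand of the TAM receptor kinases, stood at 571, 714, 362 and 399 CPM, a log2 ratio of -0.51 for AMH against control. Fshr, the receptor of follicle-stimulating hormone, stood at 87.7, 69.4, 32.8 and 24.2 CPM.

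Over 7 classes in 4 libraries, 28 points, the genes most like Slc18a2 among 7190 were Tex15 at 0.93, Tnks, Srbd1, Leo1, Fshr at 0.90, Wfdc10, Txnl1 and Lztfl1. Aard did not reach 20 CPM on average over these points. The gene most like it was Slc18a2 at 0.87, followed by Mex3c, Nol11, Tut4, Scaf11, Tax1bp1, Poldip3 and Tex30. Both lists may chiefly hold genes that were higher in granulosa-like cells, which was not tested.

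The genes beside Slc18a2 on chromosome 19 were also lower with AMH, by less. Pdzd8, whose annotated end lies 72 bases after that of Slc18a2, stood at 47.8, 39.7, 31.4 and 34.0 CPM in granulosa-like cells, with log2 ratios of -0.44 and -0.29 in the AMH pairs. Emx2, a homeobox gene 163 kb after it, stood at 48.8, 43.2, 29.4 and 31.7 CPM, with -0.55 and -0.49. Shtn1, 185 kb before it, gave -0.41 and -0.84, and Rab11fip2, 597 kb after it, -0.28 and -0.13.

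All 4 neighbours that were measured were thus below 0 in both pairs, where 34.0% and 41.4% of all genes tested were above 0. Kcnk18 and Vax1 had 16 and 3 UMIs over all libraries. Whether reads of Pdzd8 and Slc18a2 were told apart by strand is not given in the sources used here, although the kit keeps strand.

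The neighbours of Aard on chromosome 15 did not share its direction. Rad21, a cohesin subunit 46.6 kb before it, gave 0.02 and 0.16, Med30, a Mediator subunit 667 kb after it, 0.08 and 0.25, and Ext1, a heparan sulfate polymerase 1023 kb after it, 0.12 and 0.39. Utp23, below the filter at 13.6 to 15.7 CPM, gave -0.05 and 0.13. Slc30a8 had 9 UMIs, and Gm52217 was not analysed here.

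**Figure D5:**
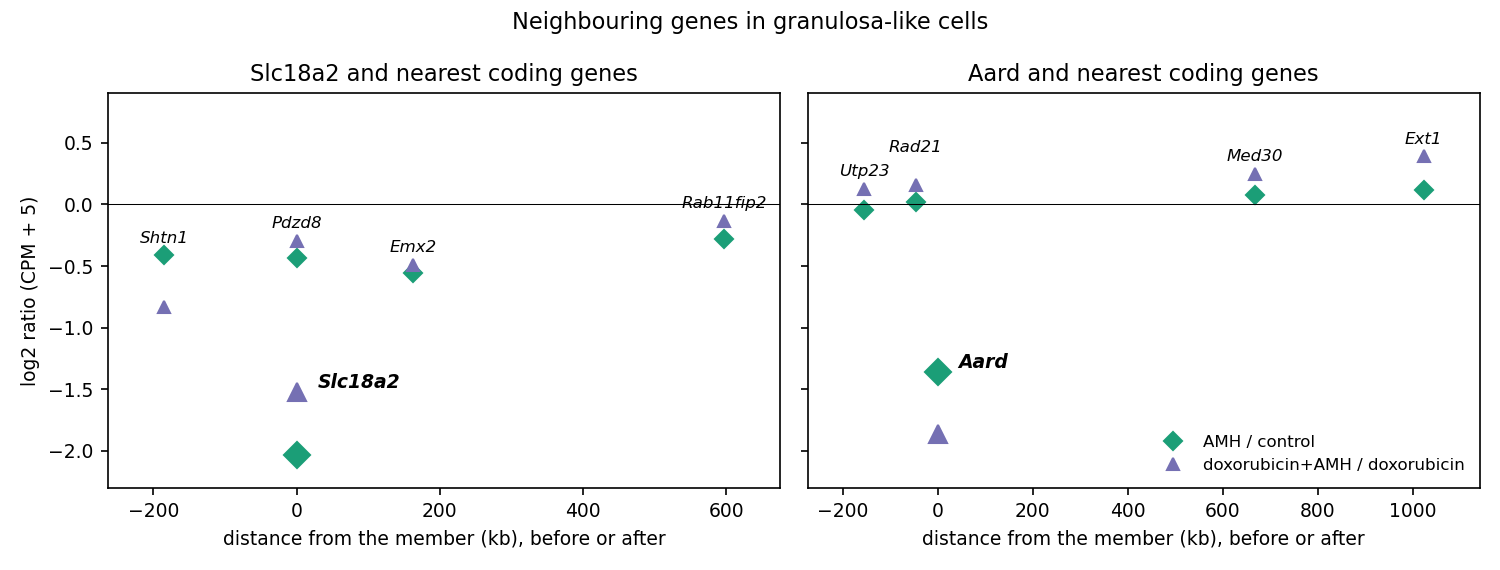
Log2 ratios of CPM plus 5 in granulosa-like cells for AMH against control (diamonds) and doxorubicin and AMH against doxorubicin (triangles), by the distance in kb of each neighbouring gene with at least 100 UMIs from Slc18a2 (left) or Aard (right), drawn as large symbols at 0. The 4 genes around Slc18a2 lie between -0.84 and -0.13, and those around Aard between -0.05 and 0.39.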

How the data were processed

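Single-cell 3′ libraries of ovary cells were made with the 10x Genomics v3.1 kit, per the labels' protocols. Per the file headers, the deposited counts are UMIs per cell barcode and gene from Cell Ranger 7.0.0, on mm10 with R 4.2.0 and Seurat 4.1.0 named in the submitters' processing notes. Whether intronic reads were counted is not given in the sources used here. The shallowest deposited cell had 500 UMIs.

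Cells below 1000 UMIs or above 20% mitochondrial UMIs were dropped, and the cells with the highest simulated-doublet scores were removed, 0.8% per 1000 cells, which took 590, 328, 390 and 584 cells from the control, doxorubicin, doxorubicin and AMH, and AMH libraries. All libraries were clustered together on 2000 variable genes, without Slc18a2, Aard, the genes of the pathway lists and mitochondrial genes, by 30 principal components, 20 neighbours and Leiden clustering (leidenalg 0.10.2, resolution 1, in Python 3.11.15 with numpy 2.4.6 and scipy 1.17.1). Clusters were named from marker lists, and those with mixed markers, or of low depth without a leading marker, stayed unnamed. Counts were summed per library and class and divided by their total to give CPM. Intervals are exact Poisson, Clopper-Pearson or conditional binomial at 95%. UMIs were thinned at random to 2000 or 5000 per cell. The calculation was tested on simulated data.

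The samples were grouped by the treatment label, with 1 library per group, and no test between groups was made. The genes named are Slc18a2 and Aard, the 3 highest and 3 lowest of each list by the AMH ratio closer to 0, the 8 most like each gene, and the 3 nearest coding genes on each side. One gene that this rule names is not reported here. The genes and lists were chosen with earlier results of these data known. Alternatives tried were other cell filters, doublets left in, equal weight per cell, median-of-ratios scaling, a pseudocount of 1 CPM, gates per cell, no filter on low values and other thinning depths. Sequences are from RefSeq GRCm38.p6 (1 of the 2 genes matched) and GENCODE vM21.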

Additional observations from a re-analysis of the deposited data

Results flagged for a closer look

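Slc18a2 differed in direction between cell groups in doxorubicin against control. Its log2 ratio was -0.20 in the Gatm cluster, -0.11 in the Slc38a5 cluster and -0.17 in the Shroom3 cluster, and 0.20 in theca-like cells, each with an interval of counting error on its side of 0. Theca-like Slc18a2 rested on 157 and 151 UMIs at 5.98 and 7.65 CPM, and its ratio was 0.03 with a mitochondrial limit of 10% and 0.04 with doublets left in. Aard differed in direction between granulosa-like clusters in doxorubicin and AMH against AMH, at -0.38 in the Gatm cluster and 0.45 in the Shroom3 cluster. These were -0.10 with cells gated one by one and 0.15 with each cell weighted equally, respectively. The differences between groups of cells were not tested, since each direction comes from 1 library per arm.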

How the results depend on the processing

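With AMH against control in granulosa-like cells, Slc18a2 moved from -2.04 to -2.11 with a pseudocount of 1 CPM, -1.97 with median-of-ratios scaling, -1.65 with each cell weighted equally, -2.18 with granulosa-like cells gated per cell and -1.89 at a fixed cluster mix, and Aard from -1.36 to -1.58 with the smaller pseudocount, -1.25 with equal weights and -1.02 at the fixed mix. With doxorubicin in both arms, Slc18a2 moved from -1.52 to -1.30 with equal weights, -1.47 with cells from 500 UMIs, -1.57 with doublets left in and -1.68 gated per cell, and Aard from -1.87 to -2.14 with the smaller pseudocount and -1.50 at the fixed mix. In doxorubicin against control, Slc18a2 moved to -0.082 with equal weights and -0.18 from 500 UMIs, and Aard to 0.62 with equal weights and 0.35 without the clusters of 1 library. In doxorubicin and AMH against AMH, Slc18a2 moved to 0.27 with equal weights and 0.26 at the fixed mix. Of the values in granulosa-like cells under an alternative, 52 moved by no more than one side of their counting interval, 20 moved by more and none changed sign. Among cluster values whose counting interval lay on one side of 0, the single one to change sign was Slc18a2 in the Gatm cluster for doxorubicin and AMH against AMH, at 0.51 by summed UMIs and -0.15 with each cell weighted equally; the cause was not tested. Values whose interval held 0 crossed it in both doxorubicin contrasts, among them Slc18a2 in the Shroom3 cluster for doxorubicin and AMH against AMH, from -0.09 to 0.46 gated per cell, and in doxorubicin against control Slc18a2 and Aard in the Inhba cluster, from -0.03 and -0.13 to 0.15 each gated per cell, and Aard in the low-UMI cluster, from 0.36 to -0.19 with a mitochondrial limit of 10%. The fixed mix and the removal of clusters of 1 library were chosen after seeing the data. Under the other cell filters and with doublets left in, no cluster took the Slc38a5 name, so it has no value there, and cells that scored on its list were in clusters named for Inhba. Of the values by cluster under an alternative, 255 moved by no more than one side of their counting interval and 40 by more. Among them Aard in the Inhba cluster moved from -0.52 to -0.94 in AMH against control and from -0.22 to -0.89 with doxorubicin in both arms, with cells from 500 UMIs. Of the values in the other classes, 5 moved, all in smooth muscle-like cells: with doublets left in Slc18a2 moved to -1.03 in AMH against control, -1.55 with doxorubicin in both arms and -0.55 in doxorubicin and AMH against AMH, and Aard to -1.30 with doxorubicin in both arms, while Slc18a2 in doxorubicin against control moved to -0.70 with a mitochondrial limit of 10%. With doublets left in, that class also held a cluster of 774 cells with mixed smooth muscle and granulosa markers. The list medians, taken with Slc18a2 and Aard in them, ran from -0.20 to -0.0091 for the monoamine genes and from -0.12 to 0.033 for the supporting-cell genes in AMH against control, and 10 of the list medians under an alternative moved.

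No paired analysis was possible because the labels give no replicate numbers that pair libraries and each group has 1 library. Depth limits Aard at 3 to 15 UMIs per library in the low-UMI cluster and at 0 to 7 in blood endothelial-like and macrophage-like cells.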
